A study of Homo sapiens with 6 samples.

Results

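The genes that form the 3′ ends of RNA polymerase II transcripts and release the polymerase were examined in U251, an established human glioma cell line, after exposure to the anaesthetic gas sevoflurane (Sev). The set holds 39 genes chosen by symbol for their role in cleavage, polyadenylation, termination or the Integrator complex, out of 61496 features in the deposited tables. All 39 passed the filter on low counts and were among the 27514 features tested. Sequencing covered total RNA depleted of ribosomal RNA, in 3 libraries of untreated control cells and 3 libraries of cells exposed to Sev for 2 h. Both groups were the same cell line in the same medium, and no gene was edited, silenced or overexpressed in either. The protocol names a gas concentration of 1.7%, one of 3.4% and one of 5.1%, and no label ties any of them to a library. A legend in the paper gives 5.1% for the sequenced Sev-treated cells. Nothing in the labels says that the libraries came from separate cultures, so the p-values measure the spread between these libraries, which may be technical.

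RNA polymerase II does not stop at a fixed letter of the gene. The cleavage and polyadenylation machinery reads the signal AAUAAA and nearby elements in the emerging RNA, cuts it, and adds a poly(A) tail to the upstream piece. The exonuclease XRN2 then degrades the downstream piece while phosphatases act on the polymerase and its elongation factors, and transcription ends. Integrator is a separate complex with its own endonuclease and a phosphatase arm, which forms the 3′ ends of small nuclear RNAs and attenuates transcription close to many promoters.

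Depth was between 38624292 and 46318311 counts per library. Control and Sev libraries lay at opposite ends of the leading principal component, which took 69% of the variance. Glial and glioma markers such as VIM, NES and CD44 were abundant, with the 10 markers summing to between 7980 and 8890 CPM (counts scaled to a common library size by the TMM method) in control and between 9040 and 9560 CPM in Sev libraries, although AQP4 was under 1 CPM throughout. VIM made up most of that sum, and single markers moved both ways, with CD44 at 363 to 401 CPM in control and 710 to 787 CPM in Sev libraries, SOX2 at 280 to 293 and 164 to 183 CPM, and S100B at 18.3 to 28.5 and 10.1 to 10.6 CPM. Among 5 leukocyte markers, the sum was 1.31 to 1.65 CPM in control and 3.96 to 5.96 CPM in Sev libraries, nearly all of it CD14, with CD3E and AIF1 at 0 counts. Of 4 epithelial markers, none reached 1 CPM in any library, and the 6 neuronal markers summed to 33 to 37.8 and 30.9 to 33.4 CPM, the 4 oligodendrocyte markers to 5.1 to 7.55 and 7.55 to 8.67 CPM, and the 3 endothelial markers to 7.11 to 9.2 and 7.4 to 10.4 CPM in control and Sev libraries. The part of these marker shifts in the results was not tested.

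Sev-treated cells had more RNA of the 5 termination genes in the set (PPP1R10 only narrowly, since its call was lost under library size only and in most fits without 1 library), less RNA of 6 of the 14 Integrator subunits in the set, and a mixed response within the cleavage complexes. The largest change was a loss of PAPOLG, a nuclear poly(A) polymerase, and the largest rise was that of SSU72, a phosphatase of the polymerase tail. At an adjusted p under 0.05 in edgeR (quasi-likelihood test, Benjamini-Hochberg over all tested features), 11 members rose after Sev, 11 fell, and 17 did not pass. The background was large, since 22.2% of all tested features passed as higher and 21.5% as lower. Among the 15189 protein-coding features tested, the shares were 25.0% and 21.0%, against 28.2% of the members in each direction. The members as a whole were therefore called about as often as other protein-coding genes. Their median log2 fold change (Sev minus control) was -0.11, beside 0.038 for protein-coding features. In bulk RNA, fewer cells with a transcript and less of it per cell cannot be told apart.

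The threshold of the study's methods, a log2 fold change past 1 (here in either direction) with an unadjusted p under 0.05, was met by no member as higher and by PAPOLG and INTS3 as lower. It was met by 11.4% of all tested features as higher and 12.0% as lower, and by 9.07% and 7.62% of protein-coding features. The 3 Sev values lay above the 3 control values in 11 members and below them in 15. Among protein-coding features, 31.2% were separated upward and 26.6% downward in this way. With 3 libraries a group, the smallest p of an exact permutation test is 0.1, so p-values here come from the model fitted across all features.

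**Figure D1:**
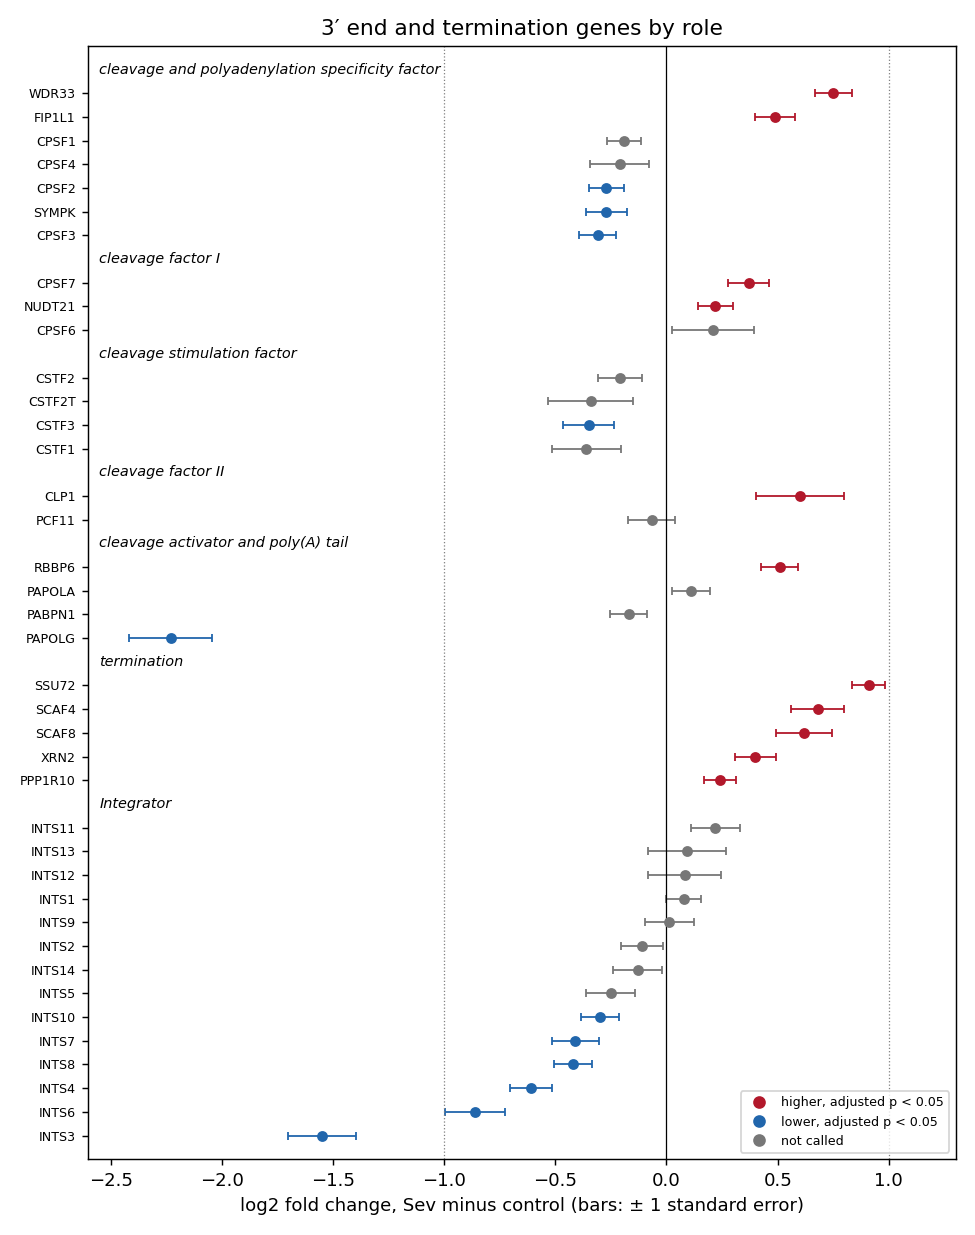
Log2 fold change (Sev minus control, x axis) of the 39 genes, grouped by role, with bars of 1 standard error; red and blue points passed the adjusted threshold as higher and lower, grey points did not, and dotted lines mark a log2 fold change of 1 in each direction. All 5 termination genes lie to the right of 0, 6 of 14 Integrator subunits are blue, and PAPOLG at -2.23 and INTS3 at -1.55 stand past the left dotted line.

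The termination genes rose together. SSU72 (chr1:1541673-1574869, minus strand, GRCh38), which removes phosphates from the C-terminal domain of the polymerase, stood at 98.5, 106 and 98.7 CPM in the control libraries and at 191, 196 and 183 CPM in the Sev libraries. The groups were far apart, and the Sev mean was 1.88-fold the control mean (log2 fold change 0.91, standard error or SE 0.0737, edgeR adjusted p = 0.000152). SCAF4 and SCAF8 are related proteins that bind the same domain and keep the polymerase from ending transcripts at early poly(A) sites. SCAF4 was at 40.2, 55.2 and 46.4 CPM in control and at 76.6, 74.4 and 75.9 CPM in Sev-treated cells, with no overlap and the tighter values in the Sev libraries. Its log2 fold change was 0.68 (SE 0.119, edgeR adjusted p = 0.00312). SCAF8 went from 114, 144 and 130 CPM to 219, 169 and 206 CPM, again without overlap, for a log2 fold change of 0.62 (SE 0.126, edgeR adjusted p = 0.00597).

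XRN2, the nuclear exonuclease that degrades the RNA left on the polymerase after cleavage, had 73.9, 91.2 and 82.3 CPM in control and 110, 106 and 111 CPM in Sev libraries. The Sev values were all higher and closer to each other (log2 fold change 0.40, SE 0.0929, edgeR adjusted p = 0.0102). PPP1R10, which encodes the PNUTS subunit that directs protein phosphatase 1 to the elongation factor SUPT5H, moved least, from 121, 115 and 117 CPM to 134, 139 and 145 CPM. The groups did not overlap, yet the log2 fold change was only 0.24 (SE 0.0717, edgeR adjusted p = 0.0287). Leaving out 1 library at a time removed that call in 5 of 6 fits, with an adjusted p of up to 0.106, and left it only without Sev replicate 2 (0.0435), whereas the calls of the other 4 termination genes held in all 6. On the scale of the deposited FPKM values, which are also divided by gene length, the tests by limma called only 2 of the 5 as higher when no filter on low values was used.

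The 7 genes of the cleavage and polyadenylation specificity factor were mixed, with 2 higher (28.6%) and 3 lower (42.9%). Of protein-coding features, 25.0% were called higher and 21.0% lower. WDR33 (chr2:127701022-127811187, minus strand), which contacts the AAUAAA signal directly, was at 147, 169 and 170 CPM in control and 271, 281 and 266 CPM in Sev-treated cells. The lowest Sev library exceeded the highest control library by a wide margin (log2 fold change 0.75, SE 0.0838, edgeR adjusted p = 0.000483). FIP1L1, which binds U-rich RNA and brings in the poly(A) polymerase, had 43.9, 52.1 and 46.8 CPM in control and 64.5, 67.2 and 68.2 CPM in Sev libraries. It rose without overlap by a log2 fold change of 0.49 (SE 0.0899, edgeR adjusted p = 0.00394). CPSF4, the zinc-finger partner of WDR33 in reading the signal, did not pass, with 42 ± 0.228 CPM in control and 36.3 ± 6.68 CPM in Sev-treated cells (mean ± SD, n = 3).

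The 3 lower genes encode the nuclease module of the same complex. CPSF3, the endonuclease that makes the cut, was at 58.6, 61.9 and 56 CPM in control and 49.4, 46 and 47.4 CPM in Sev libraries, with no overlap (log2 fold change -0.31, SE 0.0812, edgeR adjusted p = 0.0178). CPSF2, its catalytically inactive partner, went from 72.8, 77 and 77.4 CPM to 65.6, 59 and 63.9 CPM (log2 fold change -0.27, SE 0.0798, edgeR adjusted p = 0.0271). SYMPK, the scaffold that holds this module, had 135, 125 and 140 CPM in control and 115, 117 and 99.8 CPM in Sev libraries (log2 fold change -0.27, SE 0.0906, edgeR adjusted p = 0.0427). All 3 genes had separated groups, but the falls were small. Leaving out 1 library removed the call of CPSF2 in 5 of 6 fits (adjusted p up to 0.0928, kept without control replicate 1), of SYMPK in 4 (up to 0.138, kept without Sev replicate 2 or control replicate 2) and of CPSF3 in 1, without control replicate 2 (0.0552). CPSF1, the large scaffold of the signal-reading side, was at 143 ± 2.3 and 125 ± 8.01 CPM and did not pass (edgeR adjusted p = 0.0735, or 0.0336 without Sev replicate 2). It passed as lower in 5 of the 10 alternatives that kept all libraries, such as library size only (edgeR adjusted p = 0.00657).

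Because WDR33 and CPSF4 read the hexamer AAUAAA in RNA, the same letters were looked up as DNA in the members' own ends. In the last 50 bases of the principal GENCODE 29 transcript, 31 members held AATAAA, CPSF4 and INTS3 held only the variant ATTAAA, and 6 members (CPSF1, INTS1, INTS2, INTS8, INTS11 and PCF11) held neither. A match describes the letters of that window and is no measured cleavage site. The following windows show the transcript ends of SSU72, which rose most, of PAPOLG and INTS6, which fell, and of INTS3 with its variant signal, 5′ to 3′ on the transcript strand, with the hexamer in capitals.
SSU72, chr1:1541673-1541695, minus strand, GRCh38: tcAATAAAcagatgctgctgtca
PAPOLG, chr2:60798937-60798963, plus strand, GRCh38: agAATAAAatcacataaccaagttgaa
INTS6, chr13:51365227-51365246, minus strand, GRCh38: tcAATAAAtgctctatttta
INTS3, chr1:153774785-153774808, plus strand, GRCh38: caATTAAAaccaggatggagagca
Both directions of change thus occurred among genes with the common hexamer.

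Cleavage factor I binds UGUA elements upstream of the cut and favours distal poly(A) sites. Its 3 genes had positive log2 fold changes, and 2 of them passed, beside 25.0% of protein-coding features called higher. Neither of these 2 genes passed under library size only (adjusted p = 0.0976 for CPSF7 and 0.418 for NUDT21) or on the FPKM scale. CPSF7, one of its large subunits, was at 70.1, 79 and 76.1 CPM in control and 103, 87.3 and 100 CPM in Sev libraries, which did not overlap (log2 fold change 0.37, SE 0.0931, edgeR adjusted p = 0.0149). NUDT21, the small subunit that recognises the element, had 150, 170 and 164 CPM in control and 190, 182 and 193 CPM in Sev libraries (log2 fold change 0.22, SE 0.0778, edgeR adjusted p = 0.0493). Although its groups were separated, NUDT21 sat at the threshold and lost its call in each of the 6 fits without 1 library (adjusted p 0.0528 to 0.14). CPSF7 lost its call in 3 of them, without Sev replicate 1 (0.0662), control replicate 1 (0.0533) and control replicate 3 (0.051). CPSF6, the alternative large subunit, did not pass, with 65.7, 98 and 60.8 CPM in control and 79.6, 80.5 and 99 CPM in Sev-treated cells. Control replicate 2 lay apart from the other 2 control libraries for this gene, and without it CPSF6 passed as higher (edgeR adjusted p = 0.0337).

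The cleavage stimulation factor, which binds GU-rich RNA downstream of the cut, had negative log2 fold changes for its 4 genes, and 1 of them passed. That is 25%, near the 21.0% of protein-coding features called lower. CSTF3, the scaffold subunit, was at 32.4, 36.5 and 36.4 CPM in control and 25.4, 25.8 and 31.4 CPM in Sev libraries (log2 fold change -0.35, SE 0.114, edgeR adjusted p = 0.0384). Its groups were separated narrowly, and 4 of the 6 fits without 1 library lost the call (adjusted p up to 0.137), which stayed without Sev replicate 3 or control replicate 1. CSTF1, a subunit with WD repeats, stood at 51.2 ± 3.95 CPM in control and 39.9 ± 8.35 CPM in Sev-treated cells and did not pass (adjusted p = 0.0955, or 0.0412 without Sev replicate 3). The RNA-binding subunit CSTF2 was at 27.8 ± 2.26 and 24 ± 0.84 CPM, and CSTF2T, its intronless paralog, was at 27.2 ± 1.18 and 21.5 ± 6.27 CPM. Neither of these paralogs passed. Sev replicate 3 of CSTF2T, at 28.5 CPM, was level with the highest control library, while the fit without that replicate gave an adjusted p of 0.01. CSTF2 passed as lower in 4 of the 10 alternatives that kept all libraries, such as library size only (edgeR adjusted p = 0.0225).

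Cleavage factor II links cleavage to release of the polymerase. Its subunit PCF11, which bridges the polymerase tail and the RNA, was at 60 ± 3.22 CPM in control and 57.3 ± 7 CPM in Sev-treated cells and did not pass (log2 fold change -0.066, SE 0.106). CLP1, an RNA kinase of the same factor that also serves tRNA splicing, was at 8.92, 11.4 and 9.5 CPM in control and 16.4, 17.9 and 11 CPM in Sev libraries. Sev replicate 3 fell inside the control range, so the groups overlapped even though the gene passed (log2 fold change 0.60, SE 0.197, edgeR adjusted p = 0.039). The CLP1 call was lost in 4 of the 6 fits without 1 library (adjusted p 0.109 to 0.122) and stayed without Sev replicate 3 or control replicate 2.

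RBBP6, a RING-finger protein that activates the cleavage reaction, rose from 64.2, 63.3 and 61.6 CPM to 90.5, 96.4 and 83.2 CPM. The control values were tight and all lay below the Sev values (log2 fold change 0.51, SE 0.0832, edgeR adjusted p = 0.00221). Of the poly(A) polymerases in the set, PAPOLG passed and PAPOLA did not. PAPOLA, the main enzyme, was at 151, 180 and 161 CPM in control and 180, 171 and 181 CPM in Sev libraries, which overlapped (log2 fold change 0.11, SE 0.0865, edgeR adjusted p = 0.322). PAPOLG (chr2:60756230-60802085, plus strand), a second nuclear enzyme of the same family, fell from 20, 15.5 and 19 CPM to 3.98, 3.03 and 4.56 CPM, from 846, 613 and 923 counts to 150, 114 and 181 counts. The groups were far apart, and control was 4.7-fold higher (log2 fold change -2.23, SE 0.187, edgeR adjusted p = 0.000172). PABPN1, the nuclear poly(A)-binding protein that sets tail length, did not pass, at 77.4 ± 4.01 and 68.8 ± 3.99 CPM.

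**Figure D2:**
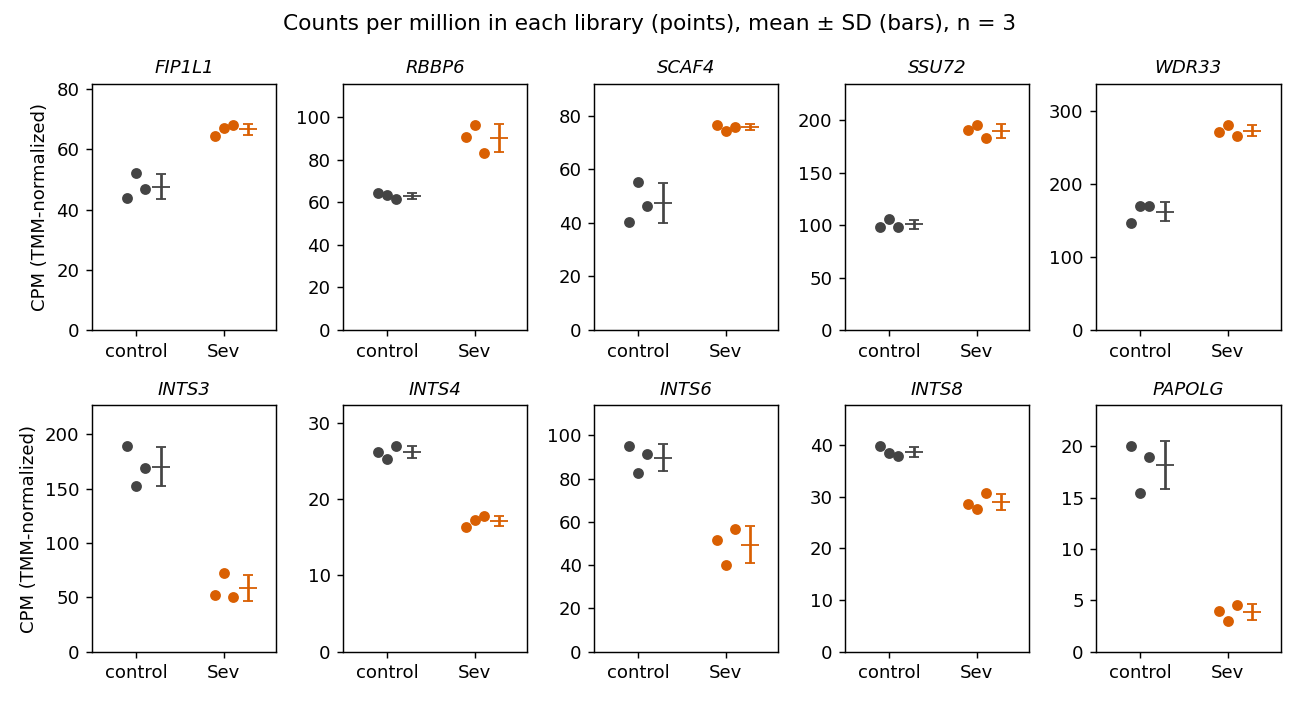
TMM-normalized CPM (y axis, from 0) of the 10 members whose call held in all 16 alternative fits, 1 panel per gene, with a point for each library and mean ± SD beside it (n = 3 per group). The 5 genes of the upper row are higher in every Sev library and the 5 of the lower row are lower, with PAPOLG near the bottom of its axis in Sev-treated cells.

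Of the 14 Integrator subunits in the set, 6 passed as lower and 0 as higher, beside 21.0% and 25.0% of protein-coding features. The lower count was 4 without control replicate 2. INTS3 (chr1:153728067-153774808, plus strand), which also belongs to a complex that binds single-stranded DNA at breaks, dropped from 189, 153 and 169 CPM to 52.4, 72 and 50.4 CPM. The highest Sev library was below the lowest control library by more than the spread of either group, and control was 2.92-fold higher (log2 fold change -1.55, SE 0.152, edgeR adjusted p = 0.000304). INTS6, part of the arm that docks protein phosphatase 2A on the complex, had 94.9, 82.6 and 91.6 CPM in control and 51.7, 40.1 and 56.7 CPM in Sev libraries. Its groups were separated too (log2 fold change -0.86, SE 0.134, edgeR adjusted p = 0.00192). INTS8, another subunit of the phosphatase arm, went from 39.7, 38.4 and 37.8 CPM to 28.6, 27.5 and 30.6 CPM (log2 fold change -0.42, SE 0.0863, edgeR adjusted p = 0.00617). INTS5, a neighbour of INTS8 in the complex, had separated groups at 23.2 ± 2.23 and 19.4 ± 1.08 CPM but did not pass (edgeR adjusted p = 0.0958).

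In the cleavage module of Integrator, 1 of 3 subunits passed. INTS4, which holds the nuclease pair, had 26.2, 25.3 and 26.9 CPM in control and 16.4, 17.2 and 17.8 CPM in Sev libraries, both groups being tight and well apart (log2 fold change -0.61, SE 0.0941, edgeR adjusted p = 0.00177). The endonuclease INTS11 stood at 58.3, 61.2 and 59.6 CPM in control and 65.2, 80.8 and 62.8 CPM in Sev libraries, separated upward but not past the test (log2 fold change 0.22, SE 0.109, edgeR adjusted p = 0.135). INTS9, its inactive partner, was at 18.8 ± 0.392 and 18.9 ± 2.01 CPM (log2 fold change 0.013, SE 0.111). Its sign turned negative under scaling to library size only, on the FPKM scale and in a fit of protein-coding features only.

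Of the backbone, INTS7 was lower, from 36.8, 37.7 and 33 CPM to 28.1, 24.1 and 28.8 CPM without overlap (log2 fold change -0.41, SE 0.107, edgeR adjusted p = 0.0169), and the fit without control replicate 2 lost that call (0.0506). INTS1, the largest subunit, was at 298 ± 11.1 and 315 ± 20.5 CPM, INTS2 was at 33 ± 1.3 and 30.5 ± 2.09 CPM, and INTS12, a PHD-finger subunit that binds INTS1, was at 12.5 ± 1.4 and 13.2 ± 2.32 CPM. These 3 subunits did not pass and their groups overlapped. In the arm formed by INTS10, INTS13 and INTS14, INTS10 was lower, from 48.6, 48.5 and 50.6 CPM to 38.4, 43.2 and 38.7 CPM (log2 fold change -0.30, SE 0.0857, edgeR adjusted p = 0.0247), although 4 of the 6 fits without 1 library lost the call (adjusted p up to 0.095), which stayed without Sev replicate 2 or control replicate 1. INTS13, at 10.3 ± 2.2 and 11 ± 0.951 CPM, and INTS14, at 33.6 ± 2.11 and 30.8 ± 3.38 CPM, overlapped between groups and did not pass.

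The balance of higher and lower calls depended on the scaling. The TMM factors were 1.03 to 1.08 for control and 0.918 to 0.988 for Sev libraries, and scaling by library size alone moved the median of all features to -0.15. Under that scaling, 7 members were higher and 16 lower, beside 4660 and 7505 of all features, while the study's threshold still took no member as higher and 2 as lower. Calls that held in all 16 alternative fits were 5 of the 11 higher ones (FIP1L1, RBBP6, SCAF4, SSU72 and WDR33) and 5 of the 11 lower ones (INTS3, INTS4, INTS6, INTS8 and PAPOLG).

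Levels of different genes were compared on the deposited FPKM values, which are scaled by gene length. In control cells the highest of the 39 was INTS1 at 28.1 ± 1 FPKM, followed by NUDT21 at 23.2 ± 0.995 and XRN2 at 20.7 ± 1.75 FPKM. By these spreads XRN2 was not separable from NUDT21 or from genes below it, such as CPSF1 (20.2 ± 0.722) and SCAF8 (20.1 ± 1.95). In Sev-treated cells SCAF8 at 28 ± 4.38 and INTS1 at 26.8 ± 0.864 FPKM did not differ beyond their spread, and XRN2 at 24.8 ± 1.37 and NUDT21 at 24.5 ± 1.57 FPKM came next. PAPOLG was lowest in both groups, at 1.82 ± 0.27 and 0.347 ± 0.0797 FPKM, with INTS6 above it in Sev-treated cells at 1.5 ± 0.305 FPKM. Above it in control came INTS12 at 2.71 ± 0.344 FPKM, not separable from INTS13 (2.86 ± 0.552) or INTS6 (2.99 ± 0.269). Integrator subunits were therefore spread from the top of the order to near its foot. In control cells INTS3 was at 13.9 ± 1.75 FPKM, second to INTS1 among Integrator subunits, and in Sev-treated cells it was at 4.28 ± 0.742 FPKM, close to INTS5 (4.56 ± 0.404) and INTS10 (4.66 ± 0.199) and not separable from them by these spreads.

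**Figure D3:**
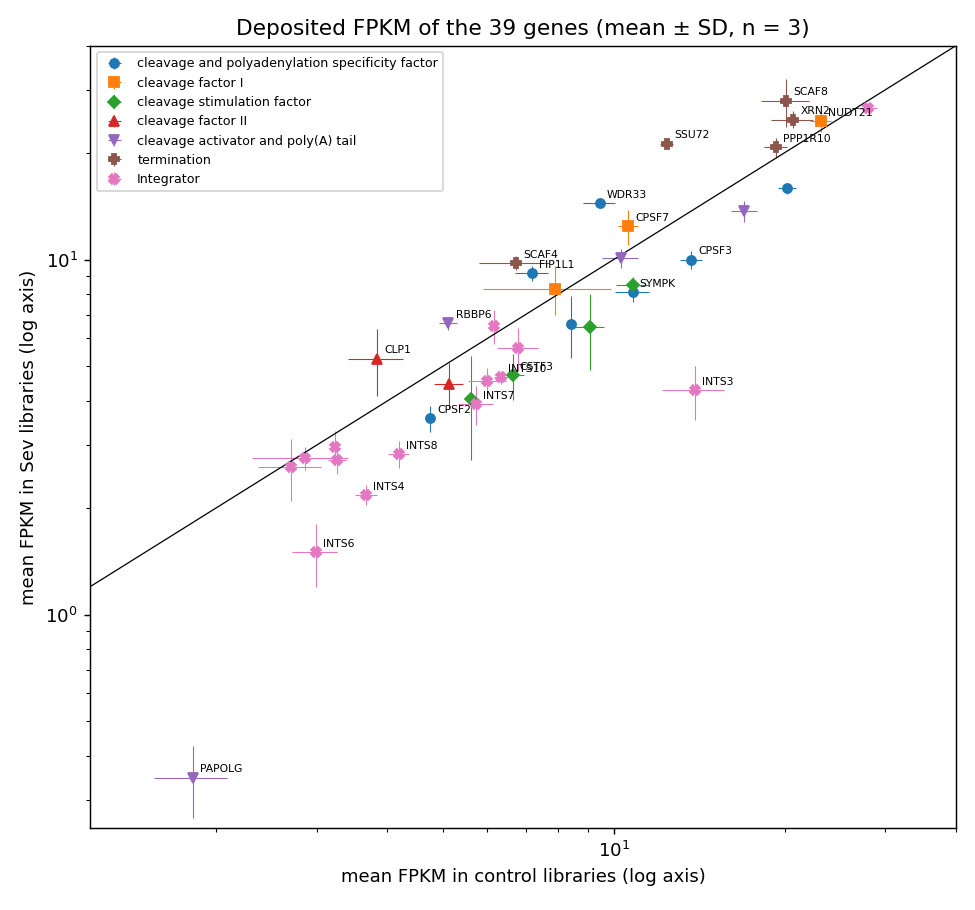
Mean deposited FPKM of each gene in control (x axis) and Sev libraries (y axis), both on log axes, with SD bars (n = 3); the symbol shape gives the role, the line marks equal levels, and genes that passed the adjusted threshold on counts are named. SSU72 and WDR33 lie well above the line, INTS3 and PAPOLG well below it.

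Several members have a structural relative in the set, and their FPKM ratio was taken within each library. PAPOLA exceeded PAPOLG by 4.72, 7.28 and 5.31 times in control and by 28.7, 35.6 and 25.1 times in Sev libraries, the widest shift of the 7 pairs. CPSF3 over INTS11, the endonucleases of the poly(A) machinery and of Integrator, was 2.26, 2.27 and 2.11 in control and 1.7, 1.28 and 1.7 in Sev libraries, so the excess of CPSF3 was smaller in each Sev library. For their inactive partners, CPSF2 over INTS9, it was 1.46 ± 0.0186 in control and 1.21 ± 0.0903 in Sev-treated cells. INTS6 over INTS6L, its paralog in the phosphatase arm, was 1.23 ± 0.0496 and 0.896 ± 0.12, also without overlap, and INTS6L itself fell by 0.41 on the log2 scale (edgeR adjusted p = 0.0166). The ratios of CSTF2 to CSTF2T (1.93 ± 0.103 and 2.22 ± 0.578), CPSF6 to CPSF7 (0.745 ± 0.17 and 0.672 ± 0.0816) and SCAF4 to SCAF8 (0.334 ± 0.0151 and 0.354 ± 0.0445) overlapped between groups. These ratios were not tested.

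**Figure D4:**
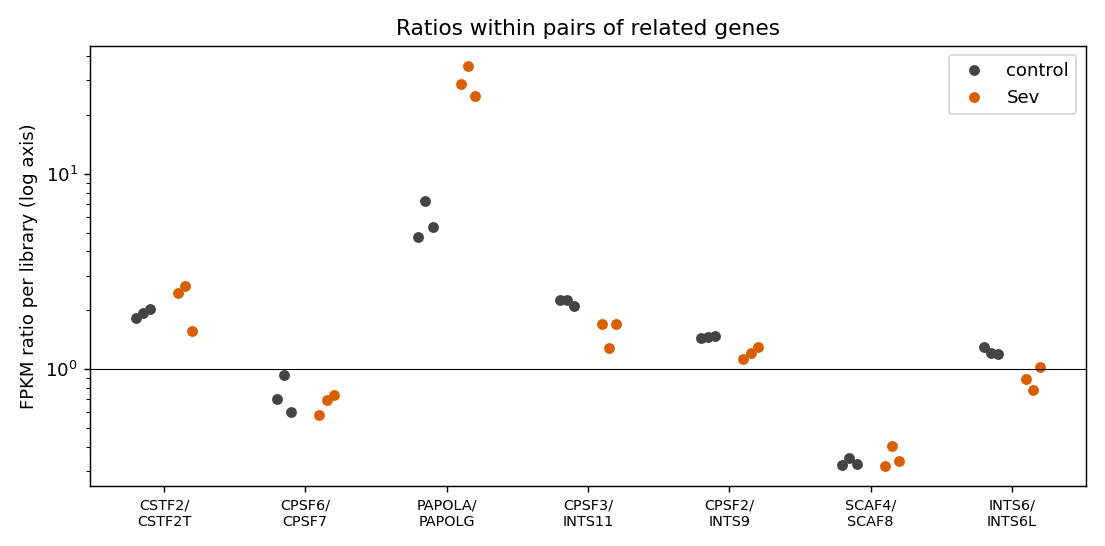
FPKM ratio of the first to the second gene of 7 related pairs (y axis, log scale), with 1 point per library in control (grey) and Sev (orange); the horizontal line marks a ratio of 1. The PAPOLA to PAPOLG ratio rises from between 4.72 and 7.28 to between 25.1 and 35.6, and SCAF4 to SCAF8 stays between 0.32 and 0.404.

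Partner genes of the same steps, 77 in all and each tested, had 29 higher and 13 lower calls, which is 37.7% and 16.9%, beside 25.0% and 21.0% of protein-coding features, with a median log2 fold change of 0.19. This balance was not kept under library size only, which gave 19 higher and 19 lower, or on log2(FPKM + 1), which gave 17 and 17. Factors that suppress premature polyadenylation in introns, the CDK12 and CDK13 kinases with CCNK and the U1 particle proteins SNRNP70, SNRPA and SNRPC, had higher values in every Sev library than in any control library for 6 of 6 genes, a separation that 31.2% of protein-coding features showed, and 4 of these passed, while CDK12 (adjusted p = 0.0885) and CDK13 (adjusted p = 0.0637) did not. CCNK, the cyclin of both kinases, was at 26.4, 31.8 and 28.1 CPM in control and 51.6, 47.9 and 56 CPM in Sev libraries (log2 fold change 0.85, edgeR adjusted p = 0.000749). Elongation factors gave 5 higher and 1 lower of 10, with SUPT5H, the target of the PPP1R10 phosphatase, at 179 ± 11.1 and 254 ± 23.2 CPM (log2 fold change 0.51, edgeR adjusted p = 0.00359) and LEO1 of the PAF1 complex lower at 22.2 ± 1.94 and 16.7 ± 0.84 CPM (log2 fold change -0.41, edgeR adjusted p = 0.0176). SUPT5H, LEO1 and the suppressors other than CCNK were named after their values were seen.

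For the smaller groups, the shares of protein-coding features called, 25.0% higher and 21.0% lower, serve as background. Partners of the phosphatase PPP1R10 gave 2 higher and 1 lower of 5, and those that bind or dephosphorylate the polymerase tail gave 3 higher and 0 lower of 9. R-loop helicases and exonucleases gave 1 higher and 2 lower of 5, cap-linked and restrictor termination factors (the ARS2 and ZC3H4 types) 2 higher and 1 lower of 6, and histone 3′ end factors 1 higher and 1 lower of 7. In the histone group, SLBP, which binds the stem-loop of histone mRNAs, was at 35.5 ± 8.99 CPM in control and 63.9 ± 6.31 CPM in Sev-treated cells (log2 fold change 0.85, edgeR adjusted p = 0.00639). CASP8AP2, required for processing of histone mRNA ends, was lower at 55.5 ± 4.1 and 30.6 ± 10.1 CPM (log2 fold change -0.86, edgeR adjusted p = 0.0144).

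Other poly(A) factors gave 3 higher and 1 lower of 8. ZFC3H1, which hands nuclear polyadenylated RNA to the exosome, fell from 67.7, 64.5 and 65.2 CPM to 26.9, 28.2 and 26 CPM, with tight groups (log2 fold change -1.28, edgeR adjusted p = 7.42e-05). ZC3H14, a poly(A)-binding zinc-finger protein, was higher at 50.7 ± 13.8 and 85.8 ± 1.54 CPM (log2 fold change 0.76, edgeR adjusted p = 0.0133). PAPOLB, the testis poly(A) polymerase, was under 1 CPM in all 6 libraries and also passed as higher (log2 fold change 1.15, edgeR adjusted p = 0.0217).

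Integrator partners gave 3 higher and 2 lower of 10. INTS15, a subunit of the arm of INTS10, INTS13 and INTS14 that is not among the 14, was one of the higher ones, at 21.3, 11.6 and 19.9 CPM in control and 27.4, 30.2 and 24 CPM in Sev libraries, close to the threshold (log2 fold change 0.63, SE 0.219, edgeR adjusted p = 0.0491). INIP, which joins INTS3 in the complex that binds single-stranded DNA, was lower like INTS3, at 22.4, 23.2 and 24.2 CPM in control and 14.1, 11.9 and 15.3 CPM in Sev libraries (log2 fold change -0.76, edgeR adjusted p = 0.00225). The other members of that complex, NABP1 and NABP2, did not pass, at 68.1 ± 3.1 and 77.9 ± 8.66 CPM and at 23.4 ± 6.62 and 24.7 ± 10.4 CPM. Of the 4 phosphatase 2A genes in the list, 2 were higher, with the catalytic PPP2CA at 187 ± 15.2 and 288 ± 6.86 CPM (log2 fold change 0.63, edgeR adjusted p = 0.000924) and the scaffold PPP2R1A at 259 ± 13.6 and 356 ± 10.7 CPM (log2 fold change 0.46, edgeR adjusted p = 0.00235). Their paralogs PPP2CB (66.8 ± 2.05 and 75.1 ± 9.03 CPM) and PPP2R1B (47 ± 1.5 and 45.5 ± 4.28 CPM) overlapped between groups and did not pass. INTS15, the NABP genes and the phosphatase 2A genes were likewise chosen after their values were seen.

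Integrator forms the 3′ ends of the spliceosomal small nuclear RNAs, and the complexes that transcribe those genes were divided, with 5 higher and 4 lower of 11. ELL2, an elongation factor of the ELL family, was at 75.6, 112 and 92.9 CPM in control and 203, 209 and 190 CPM in Sev libraries (log2 fold change 1.10, edgeR adjusted p = 0.000724). SNAPC3 of the promoter-binding complex fell from 67.4 ± 4.77 to 34.9 ± 1.9 CPM (log2 fold change -0.95, edgeR adjusted p = 0.000277), and ZC3H8 of the little elongation complex from 7.86 ± 0.654 to 4.28 ± 0.448 CPM (log2 fold change -0.88, edgeR adjusted p = 0.00285). Both lower genes had groups without overlap.

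Of 17 small nuclear RNA genes looked up, 14 were tested, 9 were higher and 1 was lower, beside 22.2% and 21.5% of all tested features. With the RNU1 copies taken as 1, these were 6 higher and 1 lower of 11. RNU2-2P rose from 81, 80.6 and 75.8 CPM to 162, 138 and 116 CPM (log2 fold change 0.81, edgeR adjusted p = 0.0017). RNU4-1 (log2 fold change 1.10), RNU4-2 (0.77), RNU5A-1 (0.83) and RNU5B-1 (0.91) passed as well at means under 10 CPM. RNU1-1, RNU1-2, RNU1-3 and RNU1-4 had a log2 fold change of 0.64 each, but these copies have nearly the same sequence and nearly the same values, so they cannot be read as separate genes. RNU5E-1 held 135, 130 and 113 counts in control and 1, 1 and 1 in Sev libraries, and no fold is given for it. Small nuclear RNAs are shorter than the mean fragment of these libraries, and how reads of longer unprocessed forms were counted is not given in the sources used here.

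Promoters of members were read from RefSeq (GRCh38.p14), 250 bases before to 50 after the start, and matched for 33 of the 39. The letters searched on both strands were GGGCGG (GC box), CCGGAAG (ETS), CCAAT (the box of that name), TGACGT (CREB/ATF), GCATGCG (NRF1) and CACGTG (E-box), which may overlap. GGGCGG was in 24 of the 33 and in 45% of 35116 promoters of the same length. CCAAT was in 17 of 33 beside 34.6%, CCGGAAG in 10 of 33 beside 10.3%, and TGACGT in 9 of 33 beside 7.98%. GCATGCG was in 3 of 33 beside 3.91%, and CACGTG in 3 of 33 beside 7.26%. For the members 1 promoter per gene was used, a limit that was not applied to the 35116. The 9 with TGACGT were spread over both directions, with RBBP6, SSU72, WDR33 and XRN2 among 10 higher members with a promoter, CPSF3, CSTF3 and INTS7 among 9 lower ones, and INTS12 and PCF11 among those not called. The promoters of the members with the strongest rise and fall are printed 5′ to 3′ on the gene's strand, with every match of a searched motif on either strand in capitals.
SSU72, chr1:1574814-1575113, minus strand: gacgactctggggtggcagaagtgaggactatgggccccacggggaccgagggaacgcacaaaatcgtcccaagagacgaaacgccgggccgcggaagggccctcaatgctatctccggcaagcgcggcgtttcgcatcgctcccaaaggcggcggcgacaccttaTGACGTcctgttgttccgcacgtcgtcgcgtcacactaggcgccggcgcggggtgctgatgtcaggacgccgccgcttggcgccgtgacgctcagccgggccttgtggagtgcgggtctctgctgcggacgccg
WDR33, chr2:127811122-127811421, minus strand: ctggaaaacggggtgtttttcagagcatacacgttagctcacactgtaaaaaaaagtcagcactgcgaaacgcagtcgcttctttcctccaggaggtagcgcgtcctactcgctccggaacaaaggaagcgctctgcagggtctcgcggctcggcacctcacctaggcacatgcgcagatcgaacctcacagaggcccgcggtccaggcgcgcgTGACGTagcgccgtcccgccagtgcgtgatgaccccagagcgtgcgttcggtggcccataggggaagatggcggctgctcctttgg
PAPOLG, chr2:60756018-60756317, plus strand: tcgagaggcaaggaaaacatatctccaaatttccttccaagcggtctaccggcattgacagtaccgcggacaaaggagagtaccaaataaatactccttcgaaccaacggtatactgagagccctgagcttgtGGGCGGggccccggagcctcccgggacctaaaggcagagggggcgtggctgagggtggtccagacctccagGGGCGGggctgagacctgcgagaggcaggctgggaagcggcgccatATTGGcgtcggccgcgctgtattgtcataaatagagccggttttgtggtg
INTS3, chr1:153727800-153728099, plus strand: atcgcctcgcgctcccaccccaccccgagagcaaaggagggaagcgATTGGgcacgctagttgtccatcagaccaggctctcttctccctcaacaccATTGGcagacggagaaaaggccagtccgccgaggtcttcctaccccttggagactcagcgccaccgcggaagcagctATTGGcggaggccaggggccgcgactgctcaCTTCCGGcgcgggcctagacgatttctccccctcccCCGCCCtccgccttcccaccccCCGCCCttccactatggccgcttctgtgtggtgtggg
In these 4, TGACGT was the only motif found in the promoters of SSU72 and WDR33. It was found in neither PAPOLG nor INTS3, which held CCAAT and GGGCGG matches, and INTS3 also held 1 CCGGAAG match. A match is a description of letters in these windows and not a bound site.

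Some members share sequence or exons with other features, which bears on their counts because the counting setting for strand and shared reads is not given in the sources used here. INTS3 shares 455 exon bases on the same strand with SLC27A3, which was itself lower, at 24 and 12 CPM (edgeR adjusted p = 0.00123), and 6.93% of the 100-base words of the INTS3 transcript occur in that gene. In FIP1L1, 56.6% of these words occur in other genes, and in WDR33 38.8% (SFT2D3, on the opposite strand). The share was 33.7% in INTS8 (CCNE2, opposite strand) and 29.2% in PABPN1 (BCL2L2-PABPN1, a read-through annotation over the same exons). FIP1L1 also shares 1560 exon bases on the opposite strand with LNX1, which was higher (log2 fold change 0.69, edgeR adjusted p = 0.0065). CCNE2 did not pass (log2 fold change 0.03, edgeR adjusted p = 0.941), and SFT2D3 was not among the tested features. SCAF8 shares 12.4% with TIAM2, which was higher (log2 fold change 1.19, edgeR adjusted p = 0.00424), and INTS4 shares 16.4% with its pseudogene INTS4P2. These values are uncertain to that extent, and their part in the results was not tested. PAPOLG and SSU72 shared no such words, while 13 of the 39 members shared some and 21 shared exon bases with another feature on either strand.

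Over the 39 members, the log2 fold change had no visible relation to the span of the gene (Pearson r 0.01, Spearman rho -0.03) or to exon length (-0.17 and -0.05), and a weak one to mean CPM (0.35 and 0.41). The members share the same 6 libraries, so these are descriptions with no test.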

How the data were processed

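The members and gene lists were chosen with earlier results of these data known. The authors deposited counts per gene without normalization and, for the same features, FPKM values, which take gene length and library size into account. The submitters' processing notes name bcl2fastq 2.19, featureCounts and hg18, while the deposited tables name no build. Positions, strands and gene types were joined by Ensembl identifier from GENCODE 29 on GRCh38, and symbols outside it were kept as given. A legend in the paper gives 5.1% Sev for the sequencing comparison, and the labels list that concentration without tying it to a library. The libraries were strand-specific, and how strand entered the counting is not given in the sources used here.

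The test was run on the counts with edgeR 4.0.16 under R 4.3.3 (filterByExpr on group, TMM, glmQLFit, glmQLFTest, 3 libraries against 3, no covariate), with Benjamini-Hochberg adjustment over 27514 features and a limit of 0.05. Standard errors were obtained by dividing the size of the log2 fold change by the root of the F statistic. CPM hold no prior count, and levels between genes use FPKM. Replicates of a group differed beyond counting noise in 49% to 67.4% of features, so each counted as 1 sample. Depth was 38624292 to 46318311 counts per library, and precision rests on 3 libraries per group and, for genes with few counts, on depth. The model was tested on simulated counts.

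Named were all 39 members, the 5 partner genes with the largest change in each direction among those with an adjusted p under 0.05 and groups that do not overlap, each small nuclear RNA gene with an adjusted p under 0.05, and the paralog partners. A few further partner genes, each marked in the text, were chosen after their values were seen. Transcript ends and 100-base words came from GENCODE 29 transcripts, searched with Python 3.11.15. Protein sequences were not used here. Transcript-end windows of the other members are not reported here. There were 16 alternatives. In 6 of them 1 library was left out. The others were scaling by DESeq2's size factors or by library size only, DESeq2 1.42.0 with its Wald test, features without any expression filter or with a minimum of 10 counts in each library, a block for the replicate number, protein-coding features only, and limma 3.58.1 on the FPKM scale. Here log2(FPKM + 1) and log2(FPKM + 0.1) were used where 3 libraries reached an FPKM of 0.5, and the former also without this filter. With 1 library left out, the model pools the spread over both groups.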

Additional observations from a re-analysis of the deposited data

How the results depend on the processing

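The counts past the study's threshold, 0 higher and 2 lower, were the same in all 16 alternatives. With library size only, members called higher were 7 and partner genes called higher 19 and lower 19, with a member median of -0.25. For limma on log2(FPKM + 1) these were 7, 17, 17 and -0.19, on log2(FPKM + 0.1) 7, 16, 17 and -0.25, and on log2(FPKM + 1) without a filter 5, 16, 16 and -0.19, where termination genes called higher were 2. The median of all features was -0.15, -0.11, -0.17 and -0.009 under these 4 settings, beside -0.006 in the reported fit. Protein-coding features only gave a member median of -0.15. Leaving out each library gave 7 to 10 members higher, 6 to 10 lower, a median of -0.15 to -0.059, 4 to 6 Integrator subunits lower, 4 to 5 termination genes higher, and 20 to 24 partner genes higher and 8 to 14 lower. The cause of these shifts was not tested.

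The replicate block gave 9 members higher and 6 lower and 8 partner genes lower. Samples with the same number did not deviate together (r of -0.00723, 0.00351 and 0.027), so the numbers share only a name.

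Values that turned negative with library size only, log2(FPKM + 1) with or without a filter, and log2(FPKM + 0.1) were those of INTS1 (-0.067, -0.066, -0.068), INTS12 (-0.057, -0.047, -0.066), INTS13 (-0.046, -0.028, -0.033), INTS9 (-0.13, -0.10, -0.13) and PAPOLA (-0.026, -0.025, -0.027). INTS9 was -0.026 with protein-coding features only. Without 1 library, INTS9 ran from -0.077 to 0.061, INTS12 from -0.012 to 0.22, INTS13 from -0.057 to 0.25 and PCF11 from -0.16 to 0.008. None of these 6 genes had passed in the reported fit. Genes with few counts, such as PAPOLB and RNU5E-1, are limited by depth.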

Other observations

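Features not typed as protein-coding were looked at on each strand where they lay within 10 kb past the end of a tested protein-coding gene. Distance was taken to their nearer edge, and features that overlap any tested protein-coding gene were left out. On the same strand, 150 of 567 were higher and 94 lower (26.5% and 16.6%), with a median log2 fold change of 0.172. On the opposite strand, 81 of 338 were higher and 54 lower (24% and 16%), with a median of 0.263. Of the remaining features of this kind, 771 of 3154 were higher and 681 lower (24.4% and 21.6%), with a median of 0.0194. These groups share the same 6 libraries and were not tested against each other. Among the members, the next tested feature downstream of WDR33 on its strand was LIMS2, which starts 19236 bases past its end and had a log2 fold change of 3.82 (edgeR adjusted p = 0.000354), while REL, 79436 bases past PAPOLG, had -0.04. Both were chosen after their values were seen.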
